A study of Homo sapiens with 40 samples.

Results

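The cyclins that carry a cell through G1 and into S phase, and the kinases they switch on, were followed in MDA-MB-231 cells exposed to 2 drugs that block the mevalonate pathway. The 10 genes were CCND1, CCND2, CCND3, CDK4, CDK6, CCNE1, CCNE2, CDK2, CCNA1 and CCNA2, out of 18417 genes with a probe set that bears 1 symbol. The array's annotation names a probe set after each. They were chosen with earlier results of these data known, the rise of CCNA1 with fluvastatin among them. Each had 1 probe set, and none was dim, which here means a mean log2 signal below 5.92 over all arrays. That cut is not a detection limit. CCND2 and CCNA1 had the lowest means of the 10, 7.49 and 7.56. The luminal marker FOXA1 and the fibroblast marker COL1A1 lay close to them, at 7.26 and 7.30.

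RNA was measured on 40 whole-transcript Affymetrix arrays, in 10 groups of 4 that the labels call independent replicates. Fluvastatin, a statin that inhibits HMG-CoA reductase, was given at 2 µM for 12 h or 24 h (lot I). Zoledronate, a nitrogen-containing bisphosphonate that inhibits farnesyl diphosphate synthase further down the same pathway, was given at 30 µM for 12 h or 24 h (lot I), at 30 µM for 48 h (lot II) and at 100 µM for 24 h (lot II). Solvent-treated controls stood beside them at 12 h and 24 h in lot I, and at 48 h and 24 h in lot II. The design text gives 2 µM fluvastatin and 30 µM zoledronate as the IC50 of each drug over a longer exposure. All groups were of the 1 breast cancer line in medium with serum. The 30 µM and 100 µM cultures at 24 h came from different lots, as did the 24 h and 48 h cultures at 30 µM, so dose and lot, and time and lot, cannot be told apart. Fluvastatin and zoledronate cultures of lot I were set against the same 4 control arrays at each time.

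D-type cyclins bind CDK4 and CDK6 in early G1 and begin the phosphorylation of the retinoblastoma protein, which releases E2F transcription factors. E-type cyclins with CDK2 complete that step at the G1 to S boundary, and A-type cyclins with CDK2 and CDK1 act through S phase and into G2. CCNA2 is the A cyclin of dividing somatic cells, whereas CCNA1 is best known from male germ cells and from leukaemias.

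Values are log2 signals after RMA, a method that corrects background, quantile-normalizes arrays and summarizes probes, so a difference of 1 is a doubling. They ran between 1.2 and 14.52, and array medians between 6.19 and 6.33. VIM (11.76 to 12.48) and CD44 (10.84 to 11.49), markers of the mesenchymal-like line, were bright on every array, while ESR1 (4.45 to 5.33), PGR and CDH1 were dim. Of the other luminal markers, GATA3, EPCAM and FOXA1 were not dim. PTPRC and CD3E of blood cells and DCN, VWF and CDH5 of fibroblasts and endothelium were dim too, whereas CD14, COL1A1, COL1A2 and PECAM1 were not. In a bulk sample, a lower signal from fewer cells of a kind and one from less RNA per cell cannot be told apart.

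CCNA1 was the 1 gene of the 10 that rose, with either drug: it rose 2.36-fold and 2.24-fold after 12 h and 24 h of fluvastatin and 2.44-fold after 24 h of 100 µM zoledronate. At that zoledronate dose 5 members fell, namely CCND1, CCND3, CDK4, CCNE1 and CDK2, by 0.24 to 0.44 on the log2 scale. CDK4 also fell after 24 h of fluvastatin. None of the 10 passed the test at 30 µM zoledronate at any time.

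The shares of all genes that passed give the scale for these counts. After 12 h of fluvastatin 1 of 10 members passed the limma test at a Benjamini-Hochberg adjusted p under 0.05, against 0.874% of all genes, and 0.348% rose as it did. Of the 2 that passed after 24 h of fluvastatin, against 10.5% of all genes, 1 rose, against 6.71%, and 1 fell, against 3.77%. With 30 µM zoledronate 0 members passed at 12 h and at 24 h, where 0% of all genes did in either comparison; 511 and 866 genes had an unadjusted p under 0.05, and 0 members were among them. The groups overlapped for all 10 members there, and 0.804% and 1.79% of all genes had groups that did not. At 12 h of 30 µM CCNA1 and CCNE2 were higher in 4 of 4 pairs. At 24 h CCNE2 was higher in 4 of 4, and CCND3, CDK4 and CCNA2 were lower in 4 of 4. The other members had pairs on both sides, and the share of all genes with 4 pairs on 1 side was not counted. With 30 µM for 48 h 0 members passed, against 7.59% of all genes, although 2 members had an unadjusted p under 0.05. At 100 µM 6 of 10 passed, against 32.0% of all genes; 5 of the 6 fell, against 16.6% of all genes that fell, and 1 rose, against 15.3%. The median of the 10 differences in that comparison was -0.37, beside 0.01 for all genes, and it lay between -0.15 and 0.04 in the other 5 comparisons. A share of 6 in 10 is higher than 32.0%, but that excess was not tested, and 4 of the 10 did not pass. The 10 genes were chosen with earlier results of these data known. Without the replicate block CCNE1 and CDK2 lost their calls at 100 µM.

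**Figure D1:**
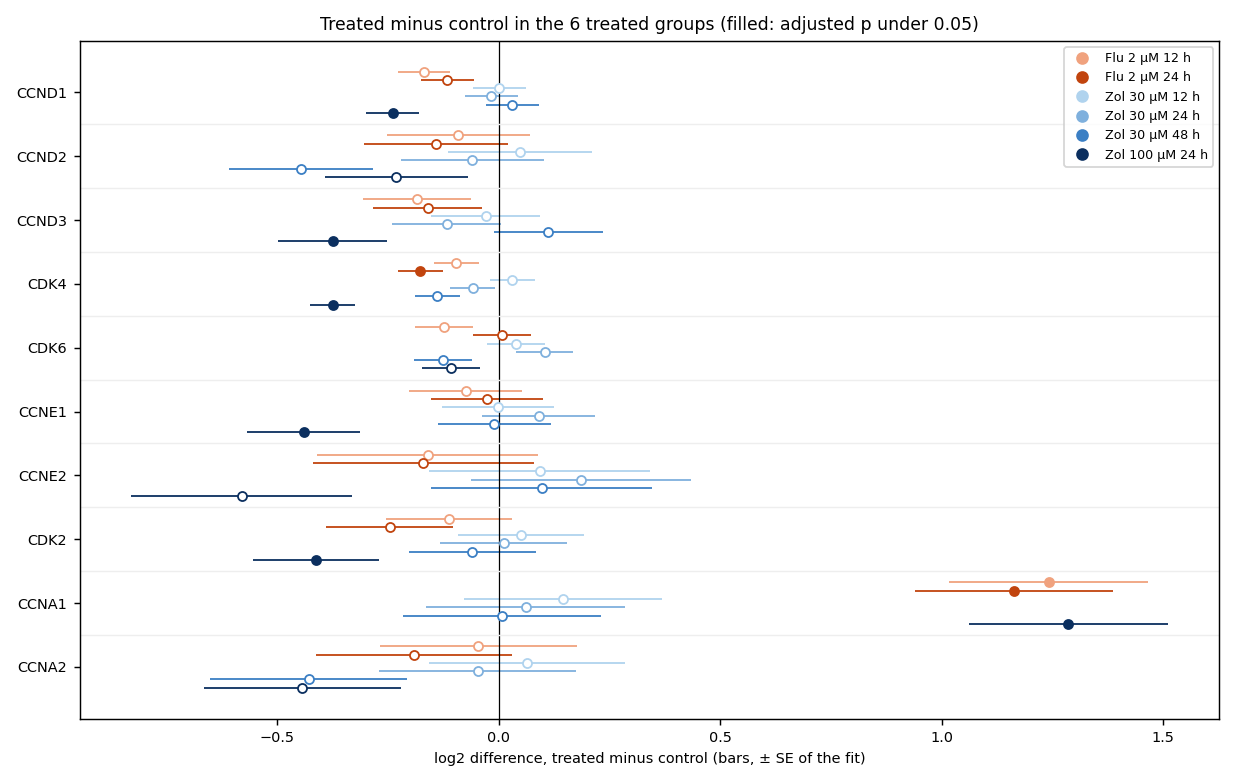
Log2 difference, treated minus control, of each gene (rows) in the 6 treated groups (colours), with bars of ± 1 SE of the fit and filled points where the adjusted p was under 0.05. CCNA1 stands between 1.16 and 1.29 in the 3 groups where it rose, while every other filled point lies below 0.

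Of the D cyclins, CCND1, the cyclin D of most breast epithelium (probe set 7942123; chr11:69641156-69654474, GRCh38.p14), read 10.64, 10.54, 10.48 and 10.51 on the arrays with 100 µM zoledronate, against 10.95, 10.71, 10.64 and 10.82 in their controls. The groups did not overlap, by a margin of 0.01, and all 4 pairs were lower. The difference was -0.24 ± 0.06 (SE of the limma fit, n = 4 pairs; adjusted p = 0.0028). After quantile normalization of the values anew it was -0.13 and did not pass (adjusted p = 0.0845). With fluvastatin the differences were -0.17 ± 0.06 at 12 h (adjusted p = 0.19) and -0.12 ± 0.06 at 24 h (adjusted p = 0.23), lower in 4 of 4 pairs each time, and neither passed. At 30 µM zoledronate its differences lay between -0.02 and 0.03.

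CCND3, the D cyclin prominent in blood cells (probe set 8126371; chr6:41934933-42050035), had 8.88, 8.86, 8.63 and 8.62 log2 units at 100 µM zoledronate, against 9.21, 9.16, 8.99 and 9.12 in its controls. All treated arrays lay below all control arrays, and the fall was 0.37 on the log2 scale (SE 0.12; adjusted p = 0.021). The call was lost when replicate 1, 3 or 4 was left out of every group, with an adjusted p of up to 0.113.

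CCND2, the third D cyclin (probe set 7953200; chr12:4273762-4305353), passed in no comparison. At 100 µM zoledronate it read 7.19, 7.12, 7.02 and 7.27, against 7.35, 7.39, 7.34 and 7.43 in controls, and the difference of -0.23 ± 0.16 (adjusted p = 0.33) was lower in 4 of 4 pairs with groups that did not overlap. Its 48 h readings with 30 µM zoledronate were 7.31, 8.86, 7.86 and 7.46, against 7.63, 8.20, 8.80 and 8.65 in controls. There replicate 2 was higher than its control and the other 3 were lower, and the difference was -0.45 ± 0.16 (adjusted p = 0.097).

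CDK4, a catalytic partner of the D cyclins (probe set 7964522; chr12:57747727-57752310, minus strand), fell in 2 comparisons. At 100 µM zoledronate it read 10.56, 10.51, 10.40 and 10.50, against 10.92, 10.87, 10.83 and 10.87 in controls. The pairs differed by -0.36, -0.36, -0.42 and -0.37, so the 4 cultures fell by nearly the same amount, 1.30-fold on average (-0.38 ± 0.05, adjusted p = 3.7e-06). With fluvastatin for 24 h it read 10.96, 11.05, 10.97 and 11.00, against 11.21, 11.10, 11.18 and 11.18, again without overlap, and the fall was 0.18 on the log2 scale (SE 0.05; adjusted p = 0.028). This smaller fall did not pass in 7 of 16 alternative settings, with an adjusted p of up to 0.276, among them the fit without the replicate block (0.106), median centring and leaving out replicate 1, 3 or 4. In the 48 h cultures with 30 µM zoledronate it read 10.62, 10.55, 10.68 and 10.67, against 10.83, 10.71, 10.74 and 10.78 in controls. The groups did not overlap and all 4 pairs were lower, yet the difference of -0.14 ± 0.05 did not pass (adjusted p = 0.1). CDK4 was the 1 of 10 members without overlap there, against 8.27% of all genes.

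The 250 bases before the annotated start of CDK4 are printed because the gene moved in step across the pairs (RefSeq, GRCh38.p14, chr12:57752311-57752560, minus strand, written 5′ to 3′). Capitals mark CACGTG, the palindromic E-box, at -216, -196 and -101 from the start, and GGGCGG, the GC box, on its opposite strand at -175, -127 and -73.
CDK4: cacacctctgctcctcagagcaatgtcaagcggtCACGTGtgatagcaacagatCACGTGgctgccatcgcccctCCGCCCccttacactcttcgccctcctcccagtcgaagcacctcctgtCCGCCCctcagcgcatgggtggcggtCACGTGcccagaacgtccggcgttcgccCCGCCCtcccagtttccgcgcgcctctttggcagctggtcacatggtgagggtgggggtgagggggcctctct
CACGTG stands in 6.34% and GGGCGG in 42.6% of 35116 RefSeq promoters of that length, read on both strands. The E-box was added to the motifs after these sequences were seen, and a match is a run of letters, not a site.

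CDK6, the other partner of the D cyclins (probe set 8140955; chr7:92604921-92836573), did not pass in any comparison. Its arrays lay between 9.05 and 9.42 at 100 µM zoledronate and between 9.18 and 9.48 in controls, and the difference was -0.11 ± 0.06 (95% interval -0.24 to 0.03; adjusted p = 0.24). That interval holds no fall as large as the 0.38 of CDK4, but the difference between the 2 kinases was not tested.

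**Figure D2:**
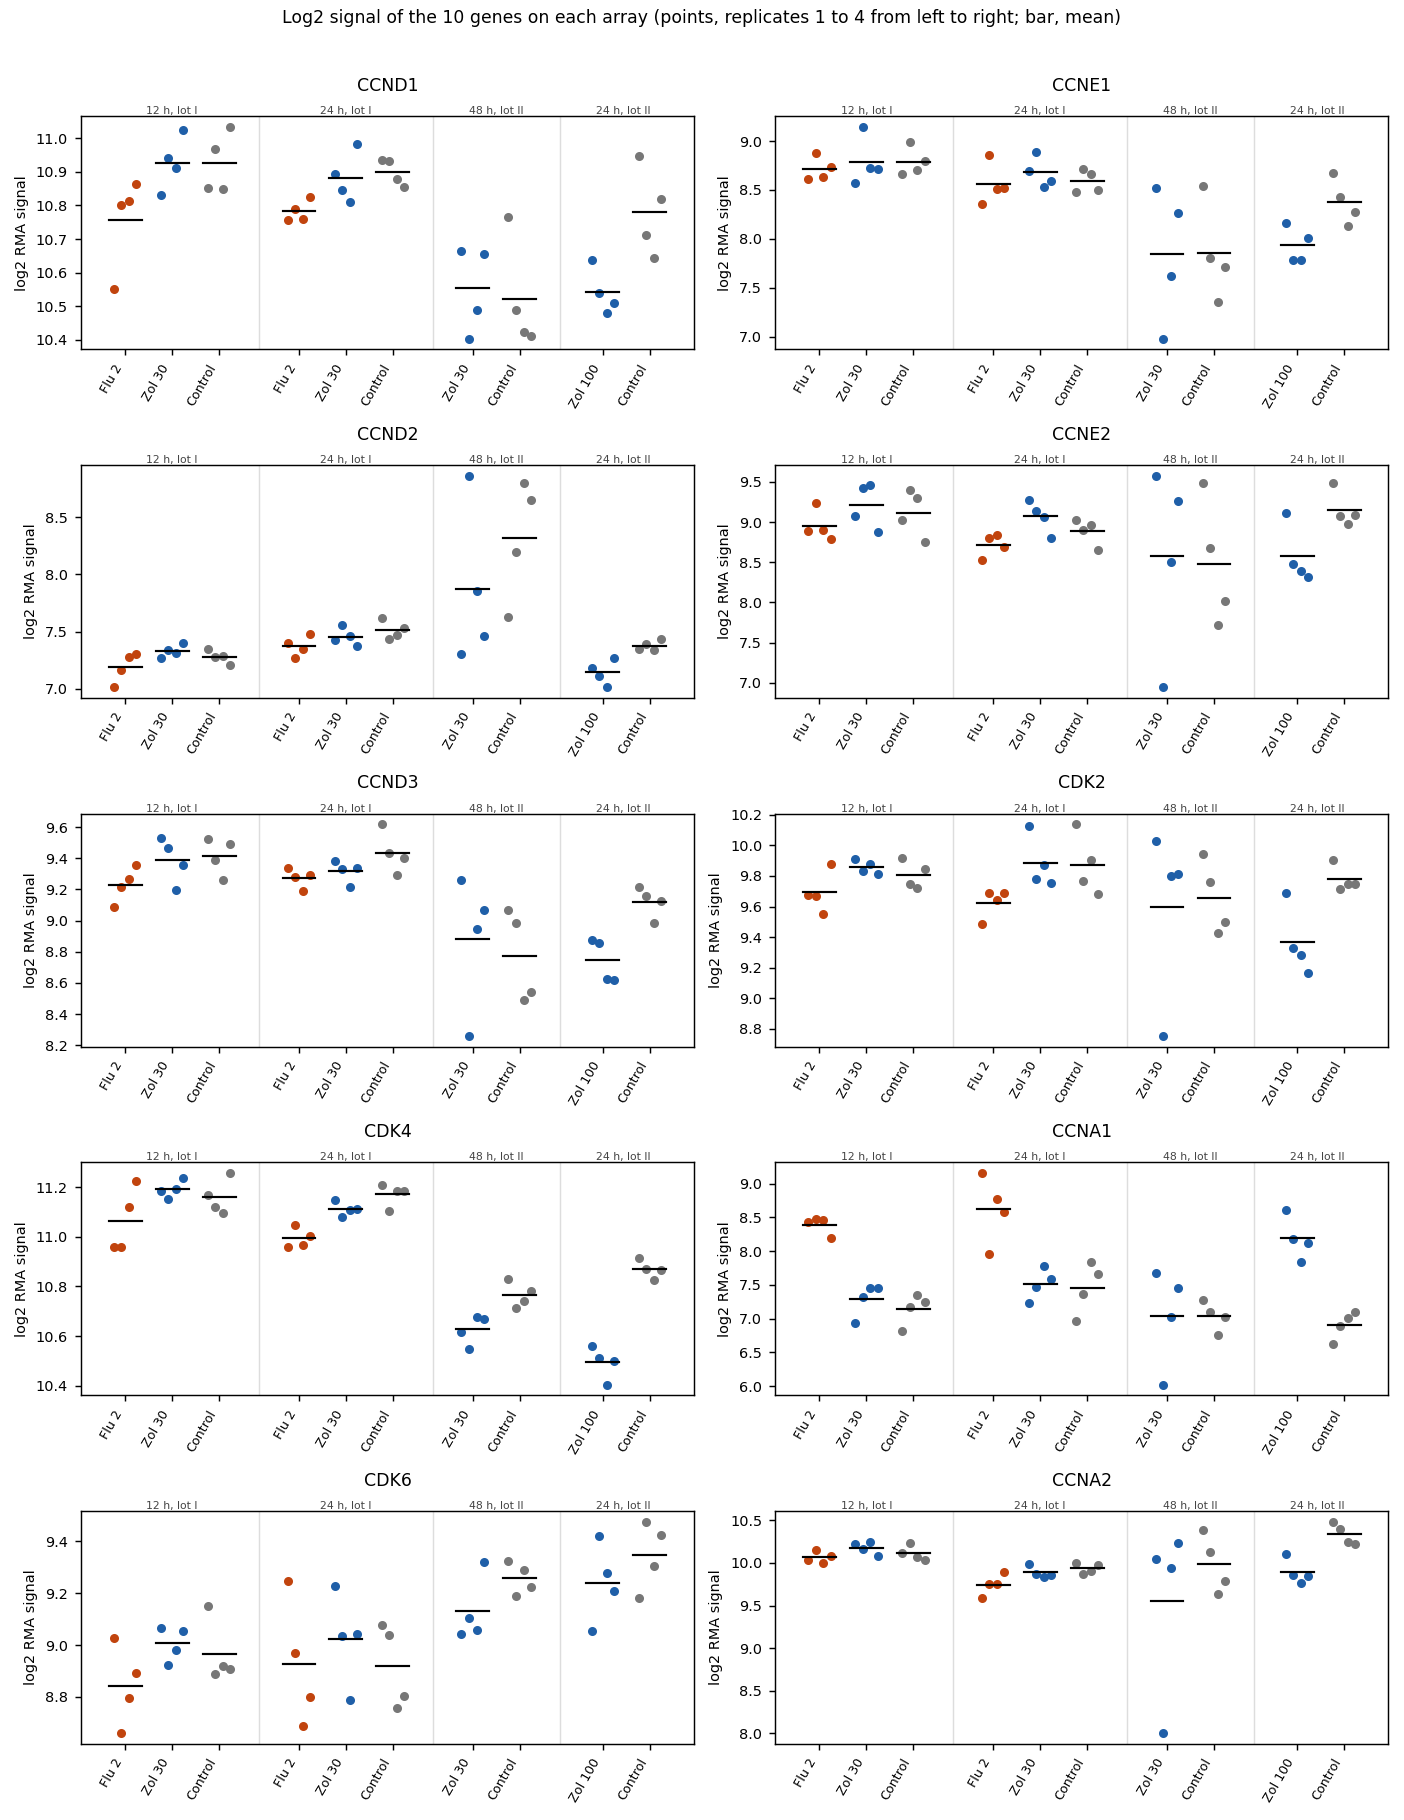
Log2 RMA signal of the 10 genes on each of the 40 arrays, with treated groups left of their control within each lot and time (points, replicates 1 to 4 from left to right; bars, group means). At 48 h the arrays spread widely, with SDs of 1.17 for CCNE2 and 1.04 for CCNA2 at 30 µM zoledronate and of 0.78 for CCNE2 and 0.34 for CCNA2 in controls.

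The E cyclins and CDK2 were lower in all 4 pairs at 100 µM zoledronate. CCNE1 (probe set 8027402; chr19:29811991-29824312) read 8.16, 7.79, 7.78 and 8.01 there, against 8.68, 8.43, 8.13 and 8.27 in controls. Replicate 1 of the treated arrays lay above replicate 3 of the controls, so the groups overlapped slightly. Within pairs the fall was 0.44 on the log2 scale (SE 0.13; adjusted p = 0.0089), which did not pass without the replicate block (adjusted p = 0.129) or without replicate 1 (adjusted p = 0.0761).

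CCNE2, the second E cyclin (probe set 8151871; chr8:94880224-94896693), had 9.12, 8.48, 8.39 and 8.31 log2 units at 100 µM zoledronate, against 9.49, 9.07, 8.98 and 9.08 in controls. Its mean difference of -0.58 ± 0.25 was the lowest of the 10 genes, and it did not pass (adjusted p = 0.083). The 4 pairs ran between -0.77 and -0.37, an SD of 0.16. The SE of the fit is shared over all groups, and the pairs at 48 h had an SD of 1.31.

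CDK2, the kinase of cyclins E and A (probe set 7956076; chr12:55966830-55972789), read 9.69, 9.33, 9.28 and 9.17 at 100 µM zoledronate, against 9.91, 9.71, 9.75 and 9.74 in controls. The highest treated array lay 0.03 below the lowest control, and CDK2 fell by 0.41 on the log2 scale (SE 0.14; adjusted p = 0.029). The call was lost without the replicate block (adjusted p = 0.0518), after quantile normalization anew, and without replicate 3 or replicate 4, with an adjusted p of up to 0.145. With fluvastatin for 24 h it read 9.49, 9.69, 9.64 and 9.69, against 10.14, 9.76, 9.91 and 9.68. The difference of -0.25 ± 0.14 did not pass (adjusted p = 0.3), and replicate 1, at -0.65, was the farthest from 0. The 3 genes had differences between -0.06 and 0.19 at 30 µM zoledronate at all 3 times.

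The A cyclins parted. CCNA1 (probe set 7968637; chr13:36431517-36442870) read 8.43, 8.48, 8.46 and 8.19 after 12 h of fluvastatin, against 6.81, 7.18, 7.35 and 7.25 in controls. After 24 h of fluvastatin it read 9.16, 7.95, 8.78 and 8.58, against 6.96, 7.36, 7.84 and 7.66. The groups did not overlap at either time, and the closest arrays were 0.83 apart at 12 h and 0.11 apart at 24 h. The rises were 1.24 ± 0.22 at 12 h (adjusted p = 0.012) and 1.16 ± 0.22 at 24 h (adjusted p = 0.0021), in 4 of 4 pairs each. They were known from these arrays before the gene was chosen. The 12 h call was lost without replicate 3 (adjusted p = 0.124) or replicate 4 (adjusted p = 0.0655), and the 24 h call with only the arrays compared in the fit (adjusted p = 0.089). Replicate 1 differed most at 24 h, by 2.20, and without it, a choice made after seeing the data, the 24 h rise was 0.85 ± 0.21 (adjusted p = 0.031). At 12 h CCNA1 was the 1 member without overlap, against 4.46% of all genes; at 24 h CCND1 and CDK4 also did not overlap, against 8.41%.

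At 100 µM zoledronate CCNA1 read 8.61, 8.18, 7.83 and 8.12, against 6.62, 6.88, 7.0 and 7.10 in controls. All 4 treated arrays exceeded the highest control by 0.74 or more, and the rise was 1.29 ± 0.22 (adjusted p = 7.5e-05). At 30 µM the groups overlapped at each time. The CCNA1 means were 0.15 above control at 12 h, 0.06 above at 24 h and 0.01 above at 48 h. At 12 h 4 of 4 pairs were higher, by 0.10 to 0.21 (SD 0.04), and at 24 h 2 of 4 were. The SE was 0.22 at each time. It is shared over all groups, and the 48 h pairs had an SD of 0.72. At 48 h the arrays read 7.68, 6.02, 7.03 and 7.45, against 7.28, 7.09, 6.75 and 7.03. Replicate 2 was 1.07 lower than its control and the other 3 were 0.28 to 0.42 higher.

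Ordered by group mean, CCNA1 stood at 8.62 ± 0.50 (SD, n = 4) after 24 h of fluvastatin, 8.39 ± 0.14 after 12 h of fluvastatin and 8.19 ± 0.32 at 100 µM zoledronate, and neighbours among these 3 overlapped. The next group, 24 h of 30 µM zoledronate at 7.51 ± 0.22, lay below all 4 arrays of the 100 µM group. From there down to the 24 h controls of lot II, at 6.90 ± 0.21, each group overlapped its neighbour.

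CCNA2 (probe set 8102643; chr4:121816444-121823883, minus strand) moved little with fluvastatin. It read 10.03, 10.15, 10.01 and 10.08 after 12 h, against 10.12, 10.23, 10.07 and 10.03 in controls, and 9.59, 9.75, 9.75 and 9.89 after 24 h, against 10.00, 9.87, 9.90 and 9.98. The differences were -0.05 ± 0.22 (adjusted p = 0.95) and -0.19 ± 0.22 (adjusted p = 0.65). At 100 µM zoledronate the readings were 10.10, 9.86, 9.77 and 9.84, against 10.49, 10.39, 10.24 and 10.23. Every treated array was below every control there, and the difference of -0.44 ± 0.22 did not pass (adjusted p = 0.14). In all, 7 of 10 members did not overlap at 100 µM, against 33.0% of all genes.

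The difference between the A cyclins was tested within pairs, as the CCNA1 difference minus the CCNA2 difference. The rise of CCNA1 with fluvastatin was known from these arrays before this test was chosen, so its p-value is not independent of that result. With fluvastatin it averaged 1.32 (SD 0.60) and was above 0 in 8 of 8 pairs (exact two-sided sign-flip permutation p = 0.007812, the smallest that 8 pairs can give). With zoledronate it averaged 0.59 (SD 0.77) and was above 0 in 12 of 16 pairs (exact p = 0.001648). By group it was 0.08 at 12 h of 30 µM, 0.11 at 24 h, 0.44 at 48 h and 1.73 at 100 µM. Over the 12 pairs at 30 µM alone, a choice made after seeing the data, it averaged 0.21 and was above 0 in 8 of 12 (exact p = 0.02637). The 4 pairs at 48 h were 0.75, 1.06, -0.03 and -0.03. In the pair at 1.06, replicate 2, both genes were below control (CCNA1 -1.07, CCNA2 -2.13), so that value is a smaller drop of CCNA1 and not a rise. The labels do not say whether cultures with the same number at 12 h and 24 h were grown together, and these tests take them as separate pairs.

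**Figure D3:**
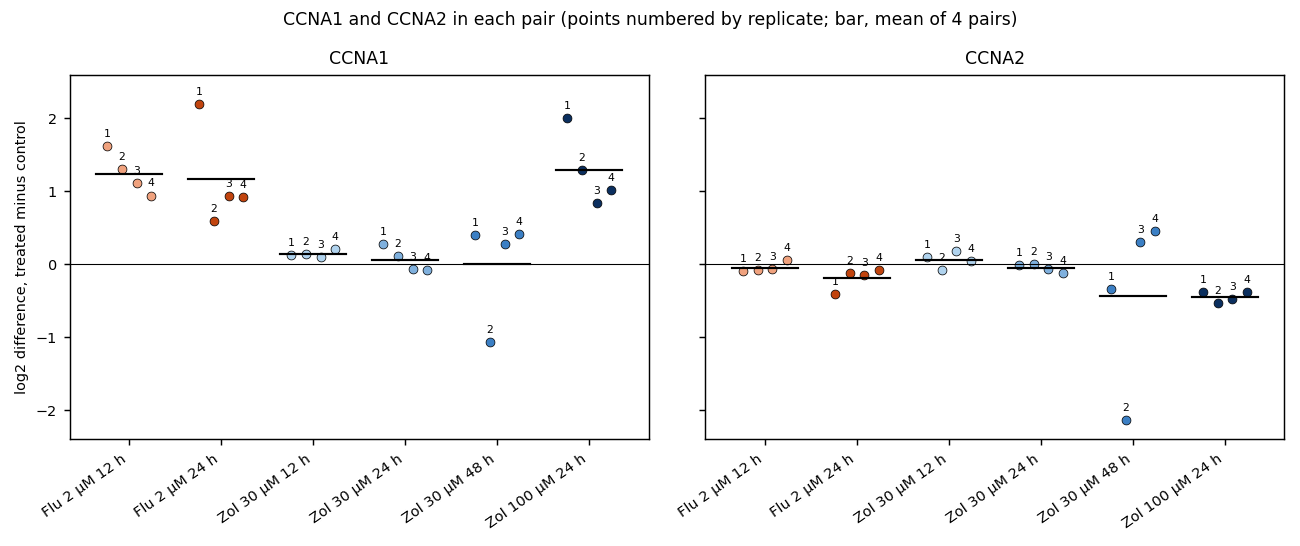
Log2 difference, treated minus control, of CCNA1 (left) and CCNA2 (right) in each pair of the 6 treated groups (points numbered by replicate; bars, means of 4 pairs). CCNA1 lies above 0 in all 12 pairs of fluvastatin and of 100 µM zoledronate, where CCNA2 lies below 0 in 11.

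The promoters of the A cyclins are printed side by side because the genes went apart (RefSeq, GRCh38.p14, 250 bases before the start, written 5′ to 3′; CCNA1 chr13:36431705-36431954, plus strand; CCNA2 chr4:121823884-121824133, minus strand). Capitals mark TGACGT, the core of the cAMP response element, and GGGCGG, the GC box, read on both strands.
CCNA1: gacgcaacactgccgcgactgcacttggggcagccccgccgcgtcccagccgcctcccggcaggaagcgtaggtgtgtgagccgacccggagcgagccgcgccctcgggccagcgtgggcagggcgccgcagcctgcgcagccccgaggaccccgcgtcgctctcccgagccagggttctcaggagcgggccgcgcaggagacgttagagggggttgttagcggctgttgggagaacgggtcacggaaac
CCNA2: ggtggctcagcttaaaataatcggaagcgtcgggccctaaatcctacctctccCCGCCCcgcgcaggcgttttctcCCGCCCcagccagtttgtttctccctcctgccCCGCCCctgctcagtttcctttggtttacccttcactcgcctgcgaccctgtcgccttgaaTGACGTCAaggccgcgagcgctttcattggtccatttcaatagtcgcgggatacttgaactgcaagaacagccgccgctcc
In CCNA2 the palindrome at -81 holds TGACGT on both strands, as 2 overlapping matches at 1 place, and GC boxes stand on the opposite strand at -197, -174 and -142. TGACGT stands in 7.1% of the 35116 promoters. The CCNA1 window, which lies inside the gene's annotated span, held none of the 7 motifs searched. Besides the E-box these were TTNNCGC with CG, GG, CC or GC in place of NN for E2F (10.9% of promoters), TTTGAA or TTCGAA for the CHR element (14.3%), TGANTCA for AP-1 (6.57%) and GGAATG for TEAD (11.9%). Of the 10 genes 6 had a promoter entry, 9 entries in all, and the entries of CCND3, CDK6 and CCNE1 are not printed. The exact letters searched for E2F, CHR and AP-1 were found in none of the 9. Other forms of these elements were not searched, so this does not show that an element is absent. CTTGAA, which differs from TTTGAA by 1 letter, stands in the printed CCNA2 window and was not counted.

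Contrasts between treatments were fitted in the same model. At 12 h the CCNA1 difference was 0.15 with 30 µM zoledronate and 1.24 with 2 µM fluvastatin, and the contrast of -1.10 ± 0.22 passed (adjusted p = 0.022). At 24 h it was 0.06 with zoledronate and 1.16 with fluvastatin, a contrast of -1.10 ± 0.22 (adjusted p = 0.0046). CCNA1 was the 1 member of 10 to pass in each, against 0.738% of all genes at 12 h and 7.23% at 24 h; it was lower with zoledronate, as 0.282% and 4.30% of all genes were. The compounds were compared over these 2 matched times and at doses that differ, so the contrast is of a drug at its dose. The 12 h contrast did not pass when any of the 4 replicates was left out or without the replicate block (adjusted p = 0.0519), and the 24 h contrast did not pass without replicate 1 or without replicate 3. With only the fluvastatin array of replicate 1 left out, 0 members passed at 24 h, against 1.15% of all genes.

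Between 100 µM and 30 µM zoledronate at 24 h 3 members differed, against 20.3% of all genes, 1 of them higher at 100 µM, against 9.20%, and 2 lower, against 11.1%. CCNA1 was 1.29 above control at 100 µM and 0.06 above at 30 µM, a contrast of 1.23 ± 0.32 (adjusted p = 0.0072). CDK4 was 0.38 and 0.06 below control at those doses, a contrast of -0.32 ± 0.07 (adjusted p = 0.0028). CCNE1 was 0.44 below control at 100 µM and 0.09 above at 30 µM, a contrast of -0.53 ± 0.18 (adjusted p = 0.038). That last contrast did not pass in 7 of 16 alternative settings, with an adjusted p of up to 0.274: without the block or with a wider or random one, after quantile normalization anew, and without replicate 1, 3 or 4. These contrasts run across lots. Between 24 h and 12 h of fluvastatin 0 members differed, against 0% of all genes, and the 95% interval of the CCNA1 contrast ran from -0.73 to 0.58. Between 48 h and 24 h of 30 µM zoledronate 0 members differed, against 0.407% of all genes.

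The 48 h cultures set limits on several of these genes. The pair of replicate 2 at 48 h of 30 µM zoledronate stood apart from the other 3 in the same direction for most members: it differed by -2.13 for CCNA2, -1.73 for CCNE2, -1.07 for CCNA1, -1.01 for CDK2, -0.83 for CCNE1 and -0.73 for CCND3, and by 0.67 for CCND2. In the other 3 pairs CCNE2 differed by 0.09, 0.79 and 1.24. The mean over 22 DNA replication genes was -1.08 in that pair, against -0.14, 0.17 and 0.26 in the others, and the mean over 18 mitosis genes was -1.76, against -0.32, -0.08 and 0.11. The part of these differences in the members' values was not tested.

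Without the array of replicate 2 at 48 h, an exclusion chosen after seeing the data, 3 members passed at 48 h, against 9.00% of all genes. CCND2 was then 0.82 below control (SE 0.11, limma adjusted p = 0.00013). CCND3 was 0.39 above (SE 0.08, adjusted p = 0.0042) and CCNE2 was 0.71 above (SE 0.14, adjusted p = 0.0031). These SEs are shared over all groups, so they and the p-values do not measure the spread of the 48 h pairs. The remaining pairs differed by -0.33, -0.94 and -1.19 for CCND2 and by 0.20, 0.45 and 0.52 for CCND3. For CCNE2 they differed by 0.09, 0.79 and 1.24. At 100 µM 8 members passed without that array, against 34.6% of all genes. CCNE2 (-0.58 ± 0.12, adjusted p = 0.00056) and CCNA2 (-0.44 ± 0.09, adjusted p = 0.00033) were added, with unchanged differences and smaller SEs. Between 100 µM and 30 µM 7 members then differed, against 24.0% of all genes, and between 48 h and 24 h of 30 µM CCND2 and CCND3 did, against 2.11%.

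The control arrays at 48 h also spread. CCND2 averaged 8.32 ± 0.52 (SD, n = 4) in 48 h controls of lot II and 7.38 ± 0.04 in 24 h controls of lot II, without overlap. CCNE2 averaged 8.47 ± 0.78 in the 48 h controls and 9.15 ± 0.23 in the 24 h controls of that lot, and CCNE1 averaged 7.86 ± 0.50 and 8.38 ± 0.24. Among the 48 h controls replicate 1 was lowest for CCND2, at 7.63, and highest for CCNE2, at 9.48.

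**Figure D4:**
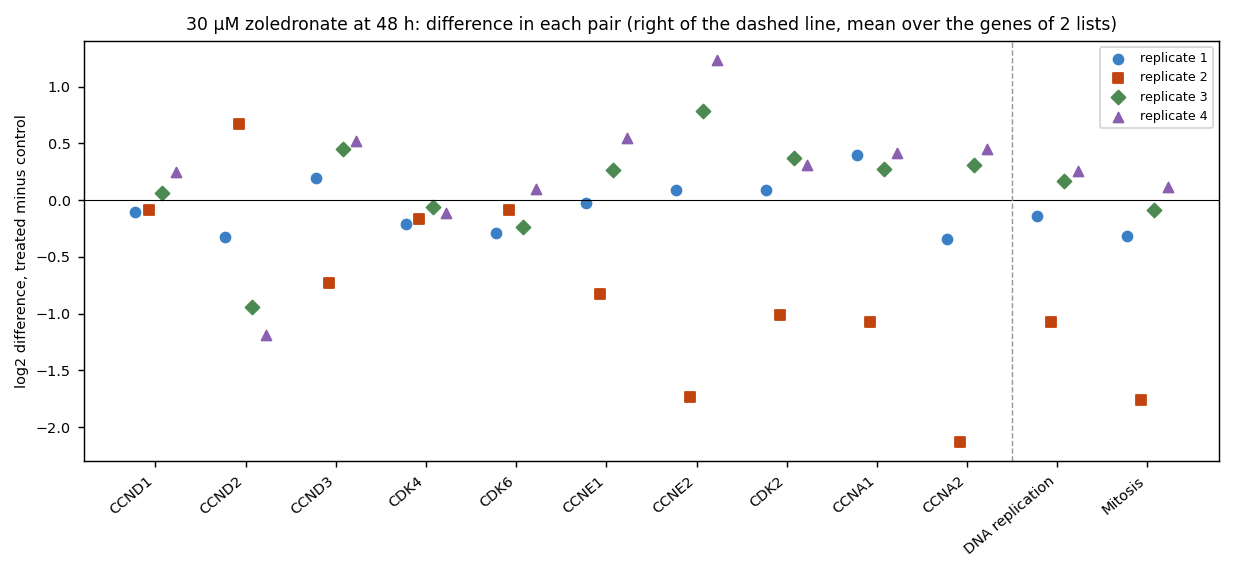
Log2 difference, 30 µM zoledronate minus control at 48 h, of the 10 genes and of the mean over 2 lists (right of the dashed line) in each of 4 pairs (colours and shapes). Replicate 2 lies between -2.13 and -0.73 for 6 members and at 0.67 for CCND2, while CDK4 lies between -0.21 and -0.06 in all 4 pairs.

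Genes that act on these complexes were described from 6 lists. Of all genes 0.874% passed after 12 h of fluvastatin and 10.5% after 24 h. At 48 h of 30 µM zoledronate 7.59% passed. At 100 µM 32.0% passed, 15.3% higher and 16.6% lower. Without replicate 2 at 48 h of zoledronate 9.00% passed at 48 h and 34.6% at 100 µM. That exclusion gave 282 and 2524 of 18417 genes after 12 h and 24 h of fluvastatin. Without replicate 1 at 24 h of fluvastatin 409 genes passed at 12 h and 460 at 24 h. Of 6 measured CDK inhibitors, 4 rose and 0 fell at 100 µM zoledronate: CDKN2D by 0.60 ± 0.09 (adjusted p = 1.2e-05), CDKN1B by 0.44 ± 0.08 (adjusted p = 0.00016), CDKN1A by 0.51 ± 0.10 (adjusted p = 0.00037) and CDKN1C by 0.27 ± 0.08 (adjusted p = 0.013). CDKN2D belongs to the family that binds CDK4 and CDK6, and the other 3 to the family that binds cyclin-CDK complexes. With fluvastatin CDKN2D rose by 0.56 ± 0.09 at 12 h (adjusted p = 0.0042) and CDKN1A by 0.35 ± 0.10 at 24 h (adjusted p = 0.028), 1 of 6 each time. Without replicate 2 at 48 h of zoledronate 2 of 6 rose at each fluvastatin time, and 2 of 6 rose at 48 h in place of 0. Without replicate 1 at 24 h of fluvastatin 3 of 6 rose at 12 h and 0 at 24 h. The list's median was 0.35 at 100 µM, 0.30 after 12 h of fluvastatin and 0.13 after 24 h, beside 0.01, 0.01 and -0.01 for all genes.

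Of 13 genes of the RB and E2F arm, 1 rose and 7 fell at 100 µM zoledronate, with a median of -0.31. RBL2, a relative of the retinoblastoma protein found with E2F4 in resting cells, rose by 0.59 ± 0.09 (adjusted p = 2.6e-05). E2F6, a repressor of the family, fell by 0.57 on the log2 scale (SE 0.05; adjusted p = 2e-08), E2F4 fell by 0.42 (SE 0.07; adjusted p = 2e-05), and E2F3, an activator, fell by 0.31 (SE 0.07; adjusted p = 0.0015). With fluvastatin for 24 h 1 of 13 fell, E2F4 by 0.33 (SE 0.07; adjusted p = 0.0031), and without replicate 2 at 48 h of zoledronate 1 rose and 3 fell. With 30 µM for 48 h 2 of 13 fell, E2F6 by 0.18 and TFDP2, a DNA-binding partner of E2F proteins, by 0.26, and 1 of 13 fell without replicate 2.

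Of 17 activators and turnover factors of the complexes, 2 rose and 10 fell at 100 µM zoledronate, with a median of -0.24. CDC25A, a phosphatase that removes inhibitory phosphates from CDK2, fell by 1.35 on the log2 scale (SE 0.18; adjusted p = 2.8e-06). CCNH and MNAT1, partners of CDK7 in the CDK-activating kinase, fell by 0.78 and 0.32, and CKS2, a small CDK-binding protein, fell by 0.59. The 24 h fluvastatin cultures differed in 2 of the 17: GSK3B, a kinase that marks cyclin D1 for export and turnover, rose by 0.28 ± 0.07 (adjusted p = 0.011) and CDC25A fell by 0.57 (SE 0.18; adjusted p = 0.046). Without replicate 2 at 48 h of zoledronate 1 rose and 3 fell there. With 30 µM for 48 h 4 of 17 fell, CKS2 by 0.37, CCNH by 0.33, MNAT1 by 0.25 and CUL1, a ubiquitin ligase scaffold, by 0.18. Without replicate 2 at 48 h 1 of 17 rose and 3 fell.

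Of 23 other cyclins and CDKs, 4 rose and 7 fell at 100 µM zoledronate, with a median of -0.15. Of all genes 15.3% rose and 16.6% fell there, so the 4 that rose are near the background share. CCNG2, an atypical cyclin linked to cell cycle arrest, rose by 1.44 ± 0.16 (adjusted p = 1.8e-07), a larger difference than that of CCNA1 in the same comparison. It also rose with fluvastatin, by 0.68 ± 0.16 at 12 h (adjusted p = 0.041) and by 0.71 ± 0.16 at 24 h (adjusted p = 0.0057). CDK19, a kinase of the Mediator complex, rose by 0.51 at 100 µM zoledronate and by 0.36 after 24 h of fluvastatin, and its partner CCNC fell by 0.48 at 100 µM. Without replicate 1 at 24 h of fluvastatin 1 of 23 rose at that time, in place of 2. With 30 µM for 48 h 0 rose and 5 fell, among them CCNB1, the mitotic cyclin B, by 0.54 (SE 0.12; adjusted p = 0.0055). Without replicate 2 at 48 h 1 of 23 rose and 4 fell.

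Among 22 DNA replication genes, many of them E2F targets, 19 fell and 0 rose at 100 µM zoledronate, with a median of -0.59. The helicase subunits MCM6, MCM3 and MCM7 fell by 0.82, 0.68 and 0.49, and the loading factor MCM10 fell by 0.94. With fluvastatin for 24 h 5 of 22 fell, with a median of -0.29, among them MCM2 by 0.44 (SE 0.10; adjusted p = 0.0059) and the licensing factor CDT1 by 0.46 (SE 0.12; adjusted p = 0.016). Leaving out 1 array moved that count both ways. Without replicate 2 at 48 h of zoledronate 16 of 22 fell after 24 h of fluvastatin. Without replicate 1 at 24 h, whose mean over the list was -0.64 against -0.24 to -0.11 in the other pairs, 0 of 22 passed, as did 0 of the 6 inhibitors and 0 of the 17 activators; among members CCNA1 alone passed, against 2.50% of all genes. Both exclusions were chosen after seeing the data. At 48 h of 30 µM zoledronate 2 of 22 fell, and without replicate 2 at 48 h 3 rose and 1 fell.

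Of 18 mitosis genes 7 fell and 0 rose at 100 µM zoledronate, with a median of -0.40, among them KIF23, a motor of cytokinesis, by 0.73 (SE 0.16; adjusted p = 0.00079). Of all genes 32.0% passed there and 16.6% fell. Without replicate 2 at 48 h 15 of 18 fell at 100 µM. At 48 h of 30 µM 8 of 18 fell, with HMMR, a spindle protein, at -0.87 ± 0.14 (adjusted p = 0.00051), and 3 of 18 fell without replicate 2. With fluvastatin 0 of 18 passed at 12 h and at 24 h, and 2 of 18 fell at 24 h without replicate 2 at 48 h of zoledronate. No gene of the 6 lists passed at 12 h or 24 h of 30 µM zoledronate. Of the marker genes at 100 µM, where 32.0% of all genes passed, 2 of 5 MDA-MB-231 markers fell, 1 of 3 blood cell markers and 1 of 6 fibroblast and endothelial markers rose, and 0 of 6 luminal markers passed. Without replicate 2 at 48 h 1 of the 5 line markers rose and 3 fell at 100 µM. The mean of the 5 line markers ran from 10.65 to 10.81 at 100 µM and from 10.92 to 11.06 in controls, and their part in the members' values was not tested.

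Across the 24 treated minus control differences the members fell into patterns, described by Pearson's r with no test. The differences share arrays, since 16 of them use a control that another also uses. CCNE2 went with CDK2 (r = 0.93), CCNE1 (0.89) and CCNA2 (0.88), and over the 20 differences without 48 h these were 0.89, 0.74 and 0.86. CCNA1 and CCNA2 had r = 0.20 over 24 and -0.62 over 20. CCND2 and CCNE2 had r = -0.67 over 24 and 0.58 over 20, so the sign rests on the 48 h pairs.

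Outside the group, the genes most like CCNA1 were GPSM2, which orients the mitotic spindle (r = 0.91), ADGRG1, an adhesion receptor (0.90), and CDKN1A (0.88). Most like CCNA2 were NUSAP1, a spindle protein, CDK1, the mitotic kinase, and TYMS, thymidylate synthase (0.98, 0.98 and 0.97). CDK4 was most like IPO4, a nuclear import receptor (0.96), CD274, the PD-L1 ligand (0.94), and MRTO4, a ribosome assembly factor (0.94). CDK2 was most like PCLAF, RAD54L and EXO1 (0.96, 0.95 and 0.95), which act in replication and repair, and CCNE2 was most like FAM111B, CDCA5 and ORC1 (each 0.96). CCNE1 was most like POLR2L, APEX2 and SKP2 (0.91, 0.91 and 0.89), and CCND3 was most like ORC1, WDR62 and MACROH2A1 (0.92, 0.91 and 0.90). CCND1 was most like MGAT5, PKP2 and TNS3 (0.87, 0.87 and 0.86) and CDK6 was most like DUSP10, MYCBP2 and ATP6V1D (0.80, 0.78 and 0.77). For CCND2 the nearest were SARS1, ATF6 and WARS1 (0.88, 0.86 and 0.86), and without the 48 h pairs these values were 0.16, 0.13 and 0.08. Without those pairs the values of CCNE1 were 0.83, 0.83 and 0.79, and those of CCND3 were 0.81, 0.78 and 0.84. For CCNA2 they were 0.91, 0.90 and 0.90. Over all members but CCND2 they ran from 0.73 to 0.97.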

How the data were processed

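The deposited table holds log2 values of 33297 probe sets on 40 arrays, made by the authors with RMA in Affymetrix Power Tools 1.10.2, per the submitters' processing notes, which also name limma. Joint or separate normalization of lot I and lot II is not given in the sources used here, nor is a genome build. Quantile normalization makes a signal relative to the rest of its array, and no depth exists: the number of arrays limits the precision.

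Probe sets with exactly 1 annotated symbol (19460; 1754 had several and 12083 were not listed) were named through RefSeq, which matched 19429. For 769 genes with several probe sets the brightest was kept, leaving 18417. One fit (R 4.3.3 with lmFit and eBayes of limma 3.58.1) used all arrays, 6 treated effects and 16 blocks of lot, time and replicate number, with 18 residual degrees of freedom. Two-sided p-values were Benjamini-Hochberg adjusted over all genes, with a threshold of 0.05, and the script was tested on simulated data. The blocks follow the series' design text, which pairs treated and control cells of a measurement day. Deviations from group means correlated above 0.1 in 15 of 16 pairs in lot I, in 2 of 4 at 48 h and in 1 of 4 at 100 µM (r -0.15 to 0.43), so in lot II the pairing rests on the text. No 2 arrays were identical.

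The members, the lists (RB and E2F arm, CDK inhibitors, activators and turnover factors, other cyclins and CDKs, DNA replication, mitosis, and 4 marker lists) and the tests were chosen with earlier results of these data known, the rise of CCNA1 with fluvastatin among them. Named were the members, up to 4 genes of a list with the smallest p among those past the threshold, and the 3 genes most like each member. As alternatives the block was dropped, widened to lot and number, or made random; the fit was run on only those arrays a comparison needs; values were median-centred or quantile-normalized again; dim genes were dropped; probe sets of a gene were averaged; array weights or an intensity trend were added; and each replicate was left out in turn.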

Additional observations from a re-analysis of the deposited data

Results flagged for a closer look

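Of the 100 groups of 4 arrays, 3 held 1 array far from the other 3; chance alone gives about 1 in 20. CCNA2 was at 8.0 in replicate 2 at 48 h of 30 µM zoledronate, with the other 3 between 9.94 and 10.23. CDK2 was at 9.91 in replicate 1 of the 24 h controls of lot II, with the others between 9.71 and 9.75. CDK6 was at 9.15 in replicate 1 of the 12 h controls, with the others between 8.89 and 8.92.

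Members differed in their effect between treated groups in 5 cases, by a test of the difference itself, as adjusted in the limma fit. CCNA1 differed by -1.10 at 12 h and by -1.10 at 24 h between 30 µM zoledronate and 2 µM fluvastatin. Between 100 µM and 30 µM zoledronate at 24 h the contrast was 1.23 for CCNA1, -0.32 for CDK4 and -0.53 for CCNE1, with dose and lot confounded.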

How the results depend on the processing

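No call of a member turned its direction in any of the settings run. In every setting CCNA1 and CDK4 kept their calls at 100 µM zoledronate (limma adjusted p up to 0.00126 and 0.00253). They also kept them in the contrast of 100 µM with 30 µM (up to 0.0428 and 0.0402). The size of the CDK4 fall moved, from -0.39 to -0.28 at 100 µM and from -0.33 to -0.20 in that contrast. Without the replicate block, so with the pairing ignored, the members called were 1 in place of 2 after 24 h of fluvastatin and 0 in place of 1 in the 12 h contrast of zoledronate with fluvastatin, and the block changed no other count of members by over 1.5 times. CCNE1 and CDK2 still lost their calls at 100 µM zoledronate without it, as did CCNE1 in the contrast of 100 µM with 30 µM. With only the arrays compared in the fit, the counts were 0 after 24 h of fluvastatin, where CCNA1 had an adjusted p of 0.089, and 7 between 100 µM and 30 µM. Median centring gave 1 after 24 h of fluvastatin. An intensity trend gave 1 at 48 h of 30 µM zoledronate. Array weights gave 2 there, 1 between 48 h and 24 h, and 6 between 100 µM and 30 µM. Leaving out each replicate in turn gave 0 to 1 members after 12 h of fluvastatin (0 without replicate 3 and without replicate 4, where CCNA1 reached an adjusted p of 0.124), 1 to 2 after 24 h, 0 to 3 at 48 h of 30 µM zoledronate, 0 to 0 in the 12 h contrast of zoledronate with fluvastatin, 0 to 1 in the 24 h contrast, and 2 to 4 between 100 µM and 30 µM. Of the exclusions chosen after seeing the data, the one at 24 h of fluvastatin (replicate 1) gave 1 there and 0 in the contrast of zoledronate with fluvastatin, where CCNA1 was at -0.79 with an adjusted p of 0.067. The one at 48 h of 30 µM zoledronate (replicate 2) gave 3 there, 2 between 48 h and 24 h, and 7 between 100 µM and 30 µM. Counts over all genes moved under the same settings. With only the arrays compared, 2 of 18417 genes passed after 24 h of fluvastatin, in place of 1930. Leaving out each replicate gave 0 to 34 genes after 12 h of fluvastatin, in place of 161, and 286 to 2398 after 24 h. A changed count of members is therefore not a result about the members alone. The cause of these changes was not tested. For most of these settings the share of all genes is not given here, so a count of members there cannot be set against it. Both tests of CCNA1 against CCNA2 kept their direction and their side of the threshold in the fewer settings run for them. These were averaged probe sets, quantile normalization anew, each replicate left out, the pairs ignored and, for zoledronate, the 30 µM pairs alone. Averaging could change nothing, as each gene had 1 probe set. With all fluvastatin pairs above 0, leaving out a replicate could not lose that result. Leaving out only the array of replicate 2 at 48 h was not run for these tests. The 30 µM setting holds that pair, at 1.06 with both genes below control, and the 48 h pair of replicate 1, at 0.75. It therefore does not show that the A cyclins part at 30 µM without these pairs. None of the 10 members was dim, and the deposited values carry no detection call.

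Over all genes, no setting moved the median difference by over 0.1. The split of higher against lower calls was 64 against 97 after 12 h of fluvastatin and 44 against 123 after median centring, 582 against 815 and 362 against 898 at 48 h of 30 µM zoledronate, and 1694 against 2052 and, after quantile normalization anew, 2047 against 1604 between 100 µM and 30 µM. The genes called numbered 161 after 12 h of fluvastatin (20 without the block), 1930 after 24 h (2 with only the arrays compared) and 1397 at 48 h of 30 µM zoledronate (0 with only the arrays compared).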
